A study of Mus musculus with 2 samples.

Results

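Mirtrons are microRNA (miRNA) genes whose hairpin precursor is cut out of a host transcript by splicing instead of by the nuclease Drosha. The spliced intron is debranched, folds into a hairpin and is cut by Dicer, so in a conventional mirtron the splice donor and acceptor set both ends of the precursor. In a 5′-tailed mirtron the hairpin lies at the 3′ end of a longer intron, and the intron sequence in front of it has to be trimmed away. The genes described here are the miRNA genes numbered Mir6896 to Mir7094, a batch of the miRNA registry miRBase that holds mostly predicted mirtrons. They were chosen by symbol alone. The annotation gives 201 such genes among 2202 listed miRNA genes, or 9.13% of the list: 196 have a plain number and 5 carry a letter or copy number, and 1 of the 199 integers has no listed gene.

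The data are small RNA libraries (microRNA-seq) made from left cerebral cortex, taken from males aged 10 days. The mice were B6CASTF1/J, an F1 hybrid of the B6 and CAST strains, from The Jackson Laboratory, and there was 1 group of 2 biological replicates with no genotype, treatment or age to compare. Each replicate is 1 library, and the labels number the tissues as separate males under a single donor entry. Counts are reads on the strand of the gene, per hairpin, with both arms summed, and CPM are reads per 1000000 reads assigned to any listed gene.

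Assigned reads numbered 2677910 in replicate 1 and 1750076 in replicate 2, so 3 reads equal 1.12 and 1.71 CPM. Of 14 listed genes known for neurons, 10 reached 2 CPM in both libraries, and the Mir124a genes and Mir9-2 did not. The 14 had summed levels of 41262 CPM in replicate 1 and 25786 CPM in replicate 2. Reads that map to several places are not counted. A low count or 0 for genes with copies, such as Mir124a, Mir9, Mir1a and Mir133a, therefore does not show absence. The red blood cell genes Mir451a, Mir144 and Mir486 summed to 814 and 56.6 CPM. The choroid plexus and ciliated cell genes Mir204, Mir448, Mir1298, Mir34c and Mir449a summed to 1356 and 3782 CPM. The 7 striated muscle genes summed to 35.8 and 46.9 CPM, with both Mir1a and both Mir133a genes at 0 reads, and the liver gene Mir122 averaged 50.4 ± 7.42 CPM (SD, n = 2). The part of these differences in the values below was not tested, and in whole tissue fewer cells of a type and less RNA per cell cannot be told apart.

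The hairpins of the batch end where introns end. In the GENCODE M21 annotation (mm10), 187 of the 201 hairpins (93.03%) had their last base on the last base of an intron on their own strand, against 24 of the 2001 other listed miRNA genes (1.20%). All 201 overlapped an intron. Host type and coding position were assigned only to 193 hairpins, those reaching at most 5 bases into an exon of the transcript used to place them. Of these, 191 had a protein-coding host and 185 lay in an intron within the coding part of the transcript. Allowing 5 bases at each end, 15 hairpins spanned a whole intron of 67 to 137 bases. A further 173 sat at the 3′ end of a longer intron, in the position of a 5′-tailed mirtron. Of the other 13, 4 sat at the 5′ end of an intron, 1 lay inside an intron away from both ends and 8 reached into an exon, 7 of these by 6 or 7 bases past the acceptor. The last letters of 187 hairpins (93.03%) were AG, the acceptor dinucleotide, against 7.40% of the other hairpins. Positions and letters come from the annotation of a batch of mostly predicted mirtrons and use no reads of these libraries.

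The following 5 hairpins are shown because they are abundant members of both layouts, the first 3 spanning a whole intron and the last 2 at an intron's 3′ end. They are GENCODE M21 transcript sequences (GRCm38, the assembly called mm10), written 5′ to 3′ on the gene's strand, with the intron's first and last 2 bases in capitals where the hairpin holds them. Mir7080 lies on the plus strand at chr8:123130106-123130172, Mir6944 on the minus strand at chr13:55477681-55477776 and Mir7070 on the plus strand at chr8:85062086-85062171. Mir7059 on the minus strand at chr7:126579474-126579532 and Mir7066 on the minus strand at chr8:70102524-70102586.
Mir7080: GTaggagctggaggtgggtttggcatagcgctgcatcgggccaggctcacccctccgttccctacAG
Mir6944: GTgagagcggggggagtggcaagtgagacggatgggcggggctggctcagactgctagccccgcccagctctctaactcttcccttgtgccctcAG
Mir7070: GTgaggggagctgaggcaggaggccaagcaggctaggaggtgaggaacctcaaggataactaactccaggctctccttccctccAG
Mir7059: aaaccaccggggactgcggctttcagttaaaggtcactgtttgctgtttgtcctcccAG
Mir7066: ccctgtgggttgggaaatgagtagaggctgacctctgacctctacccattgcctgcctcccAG
The first 3 begin with GT and all 5 close on AG after a run rich in C and T, the polypyrimidine tract that precedes an acceptor.

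Most mature 3p arms carry the acceptor letters. The RefSeq table (GRCm38.p6) matched 185 of the 201 genes and gave 177 arms from each side of the hairpin. Of the 177 3p arms, 130 ended on the last intron base, 13 ended 1 base before it and 17 ended 2 bases before it, while 137 ended in AG. C and U made up a median of 72.2% of the 3p arms (quartiles 66.7% and 77.3%), against 54.5% (45.5% and 63.6%) of 554 3p arms of other miRNA genes. The 5p arms were the reverse, with a median of 31.8% C and U against 50%, and a median of 43.5% G against 27.3% in 550 other 5p arms. Of 13 5p arms from hairpins that span an intron, 11 began on its first base and 10 began with GU. Over all 177 5p arms, 15 began with GU.

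**Figure D1:**
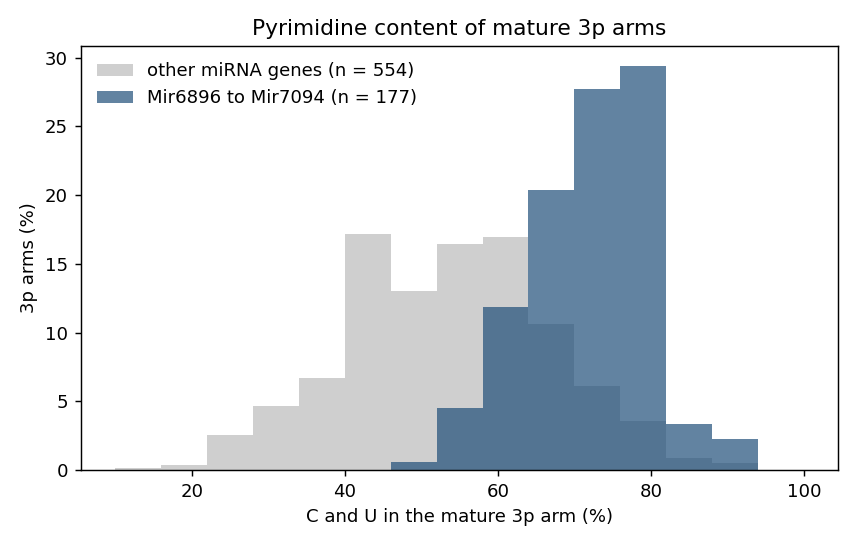
Histogram of the percentage of C and U in mature 3p arms of the RefSeq table (x axis), as a percentage of the arms in each set (y axis), for 177 arms of Mir6896 to Mir7094 and 554 arms of other miRNA genes. The batch has a median of 72.2% and lies to the right of the others, whose median is 54.5%.

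Mature arms of 7 of the most abundant members follow, from RefSeq, 5′ to 3′, with the seed (bases 2 to 8, which pair with targets) in capitals. Both arms are given because the counts do not tell them apart.
miR-7080-5p: gUAGGAGCuggagguggguuugg
miR-7080-3p: cAGGCUCAccccuccguucccu
miR-6944-5p: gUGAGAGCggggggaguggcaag
miR-6944-3p: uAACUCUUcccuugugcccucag
miR-7070-5p: gUGAGGGGagcugaggcagga
miR-7070-3p: cAGGCUCUccuucccuccag
miR-7044-5p: gUGUGGUGgugguggcggc
miR-7044-3p: aUGCAGCCccgacccucacag
miR-7059-5p: aCCGGGGAcugcggcuuucagu
miR-7059-3p: uGUUUGCUguuuguccucccag
miR-7066-5p: uGGGUUGGgaaaugaguagagg
miR-7066-3p: uCUACCCAuugccugccucccag
miR-6900-5p: uGCCAGGAgaagccuagagccguc
miR-6900-3p: uGGUGAUGggcucucuuguag
No 2 of these arms have the same seed.

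Seeds were mostly private to a gene. The 354 arms held 325 different seeds, and 25 seeds occurred in more than 1 gene, in groups of at most 3 genes. Among the 46 of 49 detected genes (defined below) that have a mature sequence in the table, 2 seeds were shared, each by a pair of 5p arms.
miR-7071-5p: cCCGGGAGcgaggugcugcagcg
miR-7034-5p: uCCGGGAGggauggaugugcu
miR-7019-5p: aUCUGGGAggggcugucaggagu
miR-6907-5p: uUCUGGGAcacagggaggcucg
Mir7071, in an intron of Heatr3, averaged 4.24 ± 0.340 CPM (SD, n = 2) and Mir7034, in Tmem120a, 2.74 ± 0.172 CPM. Mir7019, in the mitochondrial kinase gene Pink1, averaged 11.6 ± 1.04 CPM and Mir6907, in Rrp1, 2.82 ± 0.760 CPM. Which arm gave the reads is not known from these counts.

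Most of the batch had reads and few genes had many. The 201 genes held 2237 reads in replicate 1, or 0.0835% of assigned reads (95% exact binomial interval 0.0801% to 0.0871%), and 1282 reads in replicate 2, or 0.0733% (0.0693% to 0.0774%). The mean share was 0.0784% ± 0.00727 (SD, n = 2). A read was found in either library for 156 genes (77.6%), in both for 112, in replicate 1 alone for 32 and in replicate 2 alone for 12. The remaining 45 genes (22.4%) had no read. A limit of 3 reads puts these at up to 1.12 CPM in replicate 1 and 1.71 CPM in replicate 2, and the wider 95% exact interval reaches 1.38 and 2.11 CPM, the latter above the 2 CPM level used below. Intervals and such limits cover counting error only, since reads copied by PCR are not independent molecules. The median gene had 3 reads in replicate 1 and 2 reads in replicate 2.

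Detection was defined as a level of at least 2 CPM in each of the libraries, which takes 6 reads in replicate 1 and 4 in replicate 2. This was met by 49 of the 201 genes (24.4%), against a background of 20.1% over all 2202 listed genes. Among genes that share no 20 bases with another listed hairpin the order was the reverse, with 24.9% of 197 in the batch and 33.3% of 918 others. Just inside the level 4 genes were tied, Mir6982, Mir7000, Mir7051 and Mir7068, each with 6 reads in replicate 1 and with 11, 5, 9 and 6 reads in replicate 2. Just outside 5 were tied, Mir6928, Mir6935, Mir6962, Mir7011 and Mir7056, each with 5 reads in replicate 1 and with 8, 4, 6, 4 and 9 reads in replicate 2. The level was reached in replicate 1 alone by 22 genes and in replicate 2 alone by 25. Including these, 107 undetected genes had a read, with at most 13 in replicate 1 and 9 in replicate 2. At 1 CPM in both libraries 81 genes (40.3%) counted as detected, against 23.4% of all listed genes. At 5 CPM 24 (11.9%) did, against 16.7%, so the batch lay above the background at 1 and 2 CPM and below it at 5 CPM.

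More genes of the batch had a read than genes with neighbouring numbers did, and the median levels of detected genes were close. Genes from Mir5000 to Mir6895 had a read in 24.0% of 154 cases and were detected in 13.6%. Genes from Mir7095 up had a read in 45.2% of 115 cases and were detected in 11.3%. Genes from Mir1 to Mir999, which were registered earliest, had a read in 65.2% of 514 cases and were detected in 54.1%. Of the batch, 4 genes (1.99%) shared 20 bases with another listed hairpin and could lose reads that map to several places, against 54.1% of the other genes. Among genes without such a copy, a read was found for 78.7% of 197 in the batch and 77.3% of 313 from Mir1 to Mir999, while 24.9% and 66.1% were detected. Detected genes had a median of 6.18 CPM in the batch, 6.603 CPM from Mir5000 to Mir6895, 6.14 CPM from Mir7095 up, and 366 CPM from Mir1 to Mir999. These values describe 2 libraries, and no test was made between number ranges.

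**Figure D2:**
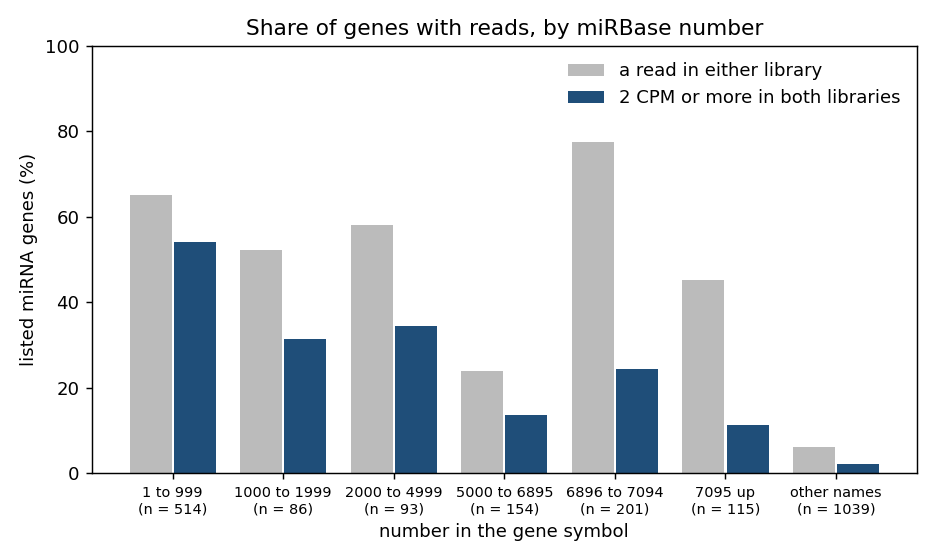
Percentage of listed miRNA genes (y axis) with a read in either library (grey bars) and with 2 CPM or more in both (blue bars), by the number in the gene symbol (x axis, number of genes below). Mir6896 to Mir7094 have the tallest grey bar, at 77.6%, and a blue bar of 24.4%.

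The reads of the batch lay on the strand of the gene. Over all 201 genes the opposite strand held 2 reads in replicate 1 and 0 in replicate 2, both at Mir6977 in Ptprs, against 2237 and 1282 reads on the gene's strand. An exon lay on the opposite strand of 3 genes, Mir6968, Mir7071 and Mir7013, and no listed miRNA gene did. Counts without regard to strand equalled the sense counts for the other 200 genes in both libraries.

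The most abundant members were Mir7080 and Mir6944, and both hairpins are whole introns. Mir7080 is a 67-base intron of Cpne7, which encodes a copine, a calcium-dependent phospholipid-binding protein. It had 492 reads (184 CPM) in replicate 1 and 203 reads (116 CPM) in replicate 2, a mean of 149.9 ± 47.9 CPM (SD, n = 2), and 1 annotated Cpne7 transcript retains the intron as exon. Mir6944 is a 96-base intron of Dbn1, which encodes drebrin, an actin-binding protein of dendritic spines. It had 295 reads (110.2 CPM) and 181 reads (103.4 CPM), a mean of 107 ± 4.76 CPM. The order of these 2 genes held in both libraries, but in replicate 2 their counting intervals overlapped (100.6 to 133 CPM and 88.9 to 119.6 CPM). They ranked 202nd and 216th of the 2202 listed genes and held 35.2% and 29.95% of the batch's reads in replicates 1 and 2.

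Mir7070, the other whole intron among the 20 most abundant members, is an 86-base intron of the F-box gene Fbxw9. It had 60 and 48 reads (22.4 and 27.4 CPM), a mean of 24.9 ± 3.55 CPM, and its counting intervals in the 2 libraries overlapped.

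The other genes above 10 CPM were 5′-tailed. Mir7044, in the Ras exchange factor gene Rasgef1a, had 85 and 27 reads (31.7 and 15.4 CPM). Mir7059, in the lysosomal membrane protein gene Cln3, had 53 and 45 reads (19.8 and 25.7 CPM). Mir7066, in the gene of the brain proteoglycan neurocan (Ncan), had 72 and 32 reads (26.9 and 18.3 CPM). The 3 have 633, 611 and 1357 bases of intron before the hairpin, against a median of 514 bases over all 173 tailed members.

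Mir6900 was nearly equal in the 2 libraries. It lies in Ndufa10, a gene of respiratory complex I, and had 48 and 32 reads (17.9 and 18.3 CPM). Mir7004, in the phospholipid flippase gene Atp9a, had 34 and 21 reads (12.7 and 12.0 CPM), and Mir7019, in Pink1, had 33 and 19 reads (12.3 and 10.9 CPM). Mir7069, in the phenylalanyl-tRNA synthetase gene Farsa, had 36 and 17 reads (13.4 and 9.71 CPM). Mir6945, in Pdlim7, had 43 and 9 reads (16.1 and 5.14 CPM) and differed more between the libraries than the others of this level.

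The following 8 genes averaged 7.47 to 10.5 CPM, and 7 of them were higher in replicate 2, none past the library test described below. Mir7083, in Dock6, had 21 and 23 reads, and Mir6990, in the nuclear receptor gene Esrra, had 24 and 17 reads. Mir6934, in Tbc1d16, had 30 and 11 reads, and Mir6994, in the mRNA decay gene Patl1, had 22 and 16 reads. These hairpins close on an acceptor, as do those of all 20 most abundant members. Mir6897, in Uggt1, had 20 and 17 reads, and Mir7063, in the clathrin adaptor gene Ap2a2, had 20 and 16 reads. Mir7026, in the chromatin remodelling gene Ep400, had 17 and 17 reads, and Mir6986, in the CAAX protease gene Rce1, had 14 and 17 reads.

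**Figure D3:**
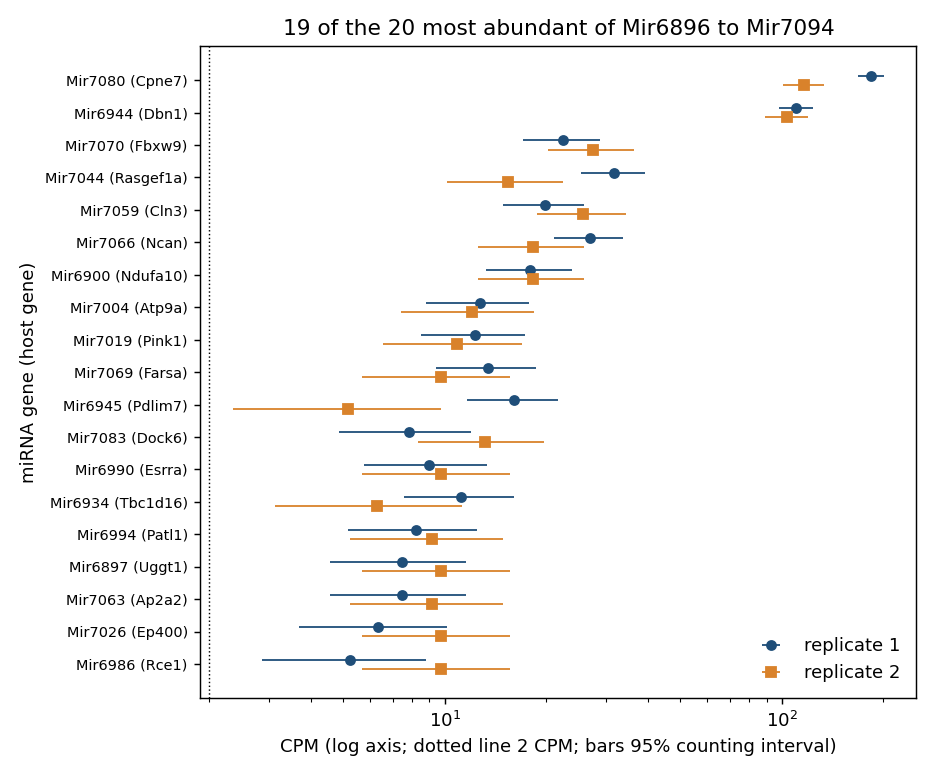
CPM on a log axis (x) in replicate 1 (circles) and replicate 2 (squares) for 19 of the 20 most abundant members, with host genes in parentheses (y), bars for the 95% exact binomial counting interval and a dotted line at 2 CPM. In 16 of the 19 genes the intervals of the 2 libraries overlap, and Mir7080 and Mir6944 lie above 100 CPM in both.

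The other 29 detected genes averaged 2.55 to 6.80 CPM, with 6 to 27 reads in replicate 1 and 4 to 18 reads in replicate 2. Hosts among them include Slc17a7, the gene of the vesicular glutamate transporter of cortical excitatory neurons, whose Mir7055 had 9 and 7 reads. Mir7055 was picked after its values were seen, for the known role of the host. Camk2a, the gene of a kinase abundant at excitatory synapses, hosts Mir6982, 1 of the genes just inside the detection level. Host transcripts were not measured here, so host and miRNA levels cannot be compared. All 49 detected hairpins closed on an acceptor and lay in an intron within coding sequence.

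Both main layouts held detected genes. Of the 15 whole-intron hairpins 5 (33.3%) were detected, of the 173 at an intron's 3′ end 44 (25.4%), and of the remaining 13 none. The background was 20.1% over all listed genes, and 31.8% over those that share no 20 bases with another listed hairpin. The whole-intron hairpins held 40.2% and 34.9% of the batch's reads in replicates 1 and 2, but with Mir7080 and Mir6944 left out the other 13 held 7.72% and 7.02% of the remaining reads, and were 6.53% of the remaining 199 genes. Their median gene was lower than that of the tailed ones, at 0.560 against 1.23 CPM, so the difference in reads rests on those 2 genes. Along the 173 tailed genes the tail ran from 7 to 36205 bases (median 514). Detection was 11 of 43 (25.6%) for tails under 100 bases, 20 of 72 (27.8%) for 100 bases to under 1 kb and 13 of 58 (22.4%) for 1 kb and more. Spearman's rho between tail length and mean CPM was -0.01 over these 173 genes, which share libraries and are not independent.

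**Figure D4:**
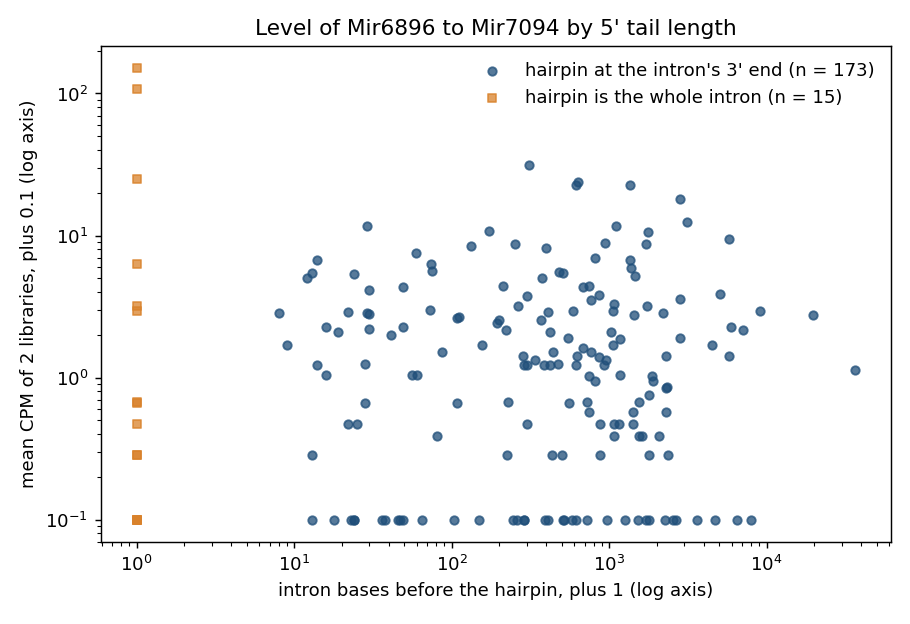
Mean CPM of the 2 libraries plus 0.1 (y, log axis) against the number of intron bases before the hairpin plus 1 (x, log axis), for 173 members at an intron's 3′ end (circles) and 15 that span an intron (squares, 1 of which starts before the intron and is drawn at no tail). The highest points are the whole introns Mir7080 and Mir6944, while tailed genes of high and low level occur at short and long tails alike.

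Detected genes were richer in G and C. Hairpin GC content had a median of 59.5% in the 49 detected genes and 56.7% in the 152 others of the batch, against 50% in the other listed genes. Detection was 3 of 34 (8.82%) below 50% GC, 22 of 96 (22.9%) from 50% to below 60%, and 24 of 71 (33.8%) at 60% and above. Over the 201 genes Spearman's rho between GC content and mean CPM was 0.222, a weak relation in sparse counts, given as a description. Hairpin length had the same median of 66 bases in detected and undetected genes, against 93 bases in the other listed genes. An exon of any non-miRNA transcript on the same strand covered part of 41 hairpins, of which 8 (19.5%) were detected, against 41 of 160 (25.6%) of the rest. The 41 include the 8 hairpins classed above as reaching into an exon, none of which was detected. Other hairpins partly covered by an exon include Mir7080, Mir7044, Mir7019, Mir6945 and Mir6990 of the 20 most abundant members. They also include Mir6958 and Mir7079, called by the library test below, as Mir7044 and Mir6945 were. The origin of the reads at these hairpins was not tested.

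Levels in the 2 libraries were close for most detected genes. Detection asks for the level in both libraries, so it leaves out the 22 and 25 genes that reached it in replicate 1 or 2 alone. Log2 ratios of CPM (replicate 2 to replicate 1, after adding 0.5 reads to every count) ran from -1.998 to 1.74 over the 49 genes, with 24 above 0, 25 below and 41 within 2-fold. The median was -0.07, and over all 442 detected genes it was also -0.07. The median size of the ratio was 0.46, against 0.40 for 189 other detected genes in the same range of mean CPM. Within that range the 2 sets were not matched for level.

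**Figure D5:**
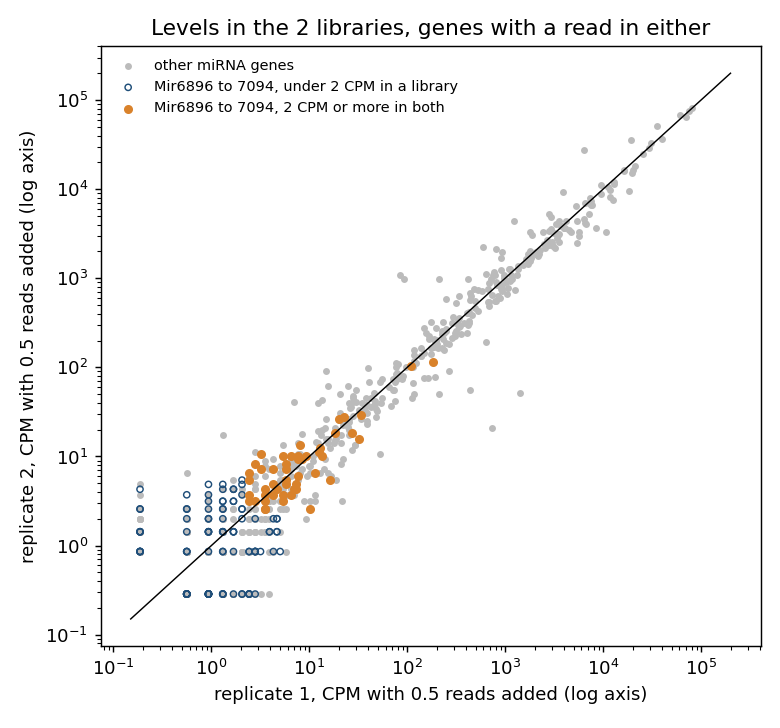
CPM with 0.5 reads added in replicate 1 (x) and replicate 2 (y), both on log axes, for genes with a read in either library, with other miRNA genes in grey, detected members filled and the remaining members open. The line marks equal levels. Most members lie below 10 CPM, where points fall on steps of whole reads, and Mir7080 and Mir6944 are the only members above 100 CPM in both libraries.

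The libraries were compared gene by gene with Fisher's exact test (two-sided) on all genes at 2 CPM or more in either library. A gene was called at a Benjamini-Hochberg adjusted p under 0.05 if its log2 ratio was also at least 1 in either direction. The test compares 2 libraries and no condition. Of 96 tested genes of the batch, 5 (5.21%) were higher in replicate 2, against a background of 5.72% of all 542 tested genes. A further 4 (4.17%) were lower, against 6.27%. These shares are not matched for level. Detected genes had a median of 6.18 CPM in the batch and 178 CPM outside it, and the test calls fewer differences at few reads. Of the 9 called members, 4 reached 2 CPM in 1 library only and so entered the test through the library where they were higher. No conclusion on the batch is drawn from the shares. Unadjusted, 16 of the 96 had a p under 0.05.

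Of the 4 called lower in replicate 2, Mir6945, Mir6958 and Mir7044 are given here. Mir6945 had a log2 ratio of -1.58 (95% counting interval -2.86 to -0.59, Fisher's exact test adjusted p = 0.00274). Mir6958, a whole 73-base intron of Dennd6b, had 27 and 4 reads (log2 ratio -1.998, adjusted p = 0.00448 by the same exact test). Mir7044 had a log2 ratio of -1.02 (-1.72 to -0.40, exact test adjusted p = 0.00208). With TMM totals its ratio was -0.97 and with DESeq2 size factors -0.95, short of the minimum, so this call depends on the scaling.

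Called higher in replicate 2 were Mir6918, Mir6988, Mir6976, Mir7024 and Mir7079. Mir6918, in the mitochondrial protein gene Nipsnap1, had 8 and 18 reads (log2 ratio 1.74, 0.51 to 3.19, Fisher's exact test adjusted p = 0.0105). Mir6988, in the ER ubiquitin ligase gene Syvn1, had 7 and 14 reads (1.56, adjusted p = 0.0331 by the exact test). Both were detected in the 2 libraries, unlike the other 3. Mir6976, in the transcription factor gene Srf, had 2 and 8 reads, and Mir7024, in Nelfa, had 1 and 6 reads, with adjusted p = 0.0426 and 0.0423 by the exact test. Neither of these 2 was called when every gene with a read was tested. Mir7079, in the ribosomal protein gene Rpl13, had 0 and 7 reads, with a lower 95% counting limit of 1.14 on the log2 ratio (adjusted p = 0.00421 by the exact test). Mir7080, the most abundant member, passed the adjusted p (6.92e-08 by the exact test) with a log2 ratio of -0.66, under the minimum size.

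Well-studied mirtrons, and the Drosha-independent genes Mir320 and Mir484, were all detected and had higher means than any member of the batch. Of mirtrons described in mammals, Mir877 had 1805 and 1335 reads (718 ± 62.8 CPM, SD, n = 2), Mir1981 averaged 692 ± 62.4 CPM, Mir1224 679 ± 182 CPM and Mir702 324 ± 116 CPM. The hairpins of Mir877, Mir1224 and Mir1981 spanned a whole annotated intron to the base, as those of Mir7080 and Mir6944 do, and that of Mir702 reached 9 bases into an exon. Mir320 and Mir484, whose precursors start at a transcription start site and need no Drosha, averaged 3959 ± 639.9 and 2019.8 ± 33.8 CPM. Of all listed genes outside the batch, 8 spanned a whole intron, among them Mir877, Mir1224 and Mir1981. Of these 8, 5 were detected, again with Mir877, Mir1224 and Mir1981 among them, and their median of 679 CPM is the mean of Mir1224. Another 31 genes outside the batch sat at an intron's 3′ end and 12 of these were detected, with a median of 11.3 CPM. Set against the named genes, Mir7080 at 149.9 ± 47.9 CPM lay below Mir702 in each library (184 against 406 CPM in replicate 1 and 116 against 242 CPM in replicate 2).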

How the data were processed

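Small RNA was sequenced from 2 libraries of 1 group, so no condition was compared. The authors deposited raw counts, 1 table per library, for assembly mm10 and annotation M21 as a text file beside each sample's data states. Aligner, counter and trimming settings were not given in the sources used here. Column meanings follow from the values: the column with the larger sum of strand-specific counts was taken as sense. Rows naming no gene (unmapped, mapped to several places or outside genes) were left out of totals and held 70.5% of reads in replicate 1 and 76.5% in replicate 2. Arms and parental alleles were not separated, and reads that differ from mm10 may be lost.

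CPM, exact binomial intervals, Fisher's exact test with Benjamini-Hochberg adjustment over all 542 tested genes, and hairpin positions against M21 introns (tolerance 5 bases) were computed with Python 3.11.15, scipy 1.17.1 and pandas 2.3.3. Alternatives, among them TMM (edgeR 4.0.16) and size factors (DESeq2 1.42.0), both in R 4.3.3, are given in the closing section. The genes and lists were chosen with earlier results of these data known. Named with values are the 20 detected members with the highest mean, all called members, those nearest the 2 CPM level on each side (planned as 3 a side, extended to all ties after their values were seen), detected members that share a seed, and the list of known mirtrons. For 2 of these members the values and sequences are not reported here; counts over the batch include them. The labels number the tissues as different males, and p-values measure counting error between 2 libraries.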

Additional observations from a re-analysis of the deposited data

How the results depend on the processing

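The number of detected genes followed the level asked for. It was 81 at 1 CPM in both libraries (40.3%, all genes 23.4%) and 24 at 5 CPM (11.9%, all genes 16.7%), which turns the order against the background. With either library alone it lay between 71 (35.3%, all genes 22.6%) and 74 (36.8%, all genes 22.1%). The share of reads lay between 0.0733% and 0.0835% with either library alone and was 0.0348% when reads mapped to several places were added to the total. With counts that ignore strand, 54 genes (26.9%, all genes 19.3%) were detected, against 49 in the main setting. The median log2 ratio of these 54 was 0.089, opposite in sign to the main value. The counts themselves were the same for 200 of the 201 genes, so the 2 medians are over different sets of genes. With strand ignored, 180955 reads in replicate 1 and 108944 in replicate 2 were ambiguous and left out of the totals. Mir7080, with equal counts, averaged 160 CPM in that setting, against 149.9 CPM in the main setting. The part of these totals in the change of sign was not tested. Of the 9 called genes, 8 were kept with TMM totals and with DESeq2 size factors, 7 without the filter on low counts and 9 with unstranded counts. The whole-intron count was 14 to 18 for end tolerances of 0 to 10 bases. No paired analysis was possible because there is only 1 group. With 3 reads equal to 1.12 and 1.71 CPM, differences among the lowest genes were not detectable at this depth.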

Other observations

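Some members share a host gene. In 5 hosts (Ankrd52, Arap3, Cmip, Skiv2l and Srebf1) 2 hairpins of the batch lie in 1 gene. Of these 10 hairpins only Mir6915 in Ankrd52 was detected, while its neighbour Mir6914 was not. The share detected over the whole batch was 24.4%. The hosts of the 201 genes numbered 196, spread over 20 chromosomes, with 19 members each on chromosomes 7 and 11.

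Of 354 mature arms of the batch, 55 carried a seed that also occurs in a RefSeq miRNA outside it. Among detected genes miR-7069-3p shared its seed with miR-18a-3p, miR-6958-5p with miR-30c-1-3p and miR-30c-2-3p, and miR-6915-5p with miR-540-3p. These pairs were picked after the list was seen, and the counts per hairpin do not show whether either arm was present.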
